A study of Homo sapiens with 40 samples.

Results

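The 9 genes described here encode aldehyde dehydrogenases: ALDH1A1, ALDH1A2, ALDH1A3, ALDH1L1, ALDH2, ALDH3A1, ALDH3A2, ALDH3B1 and ALDH3B2. They were chosen by symbol from a table of 60708 genes, in which each symbol occurred once, and the list was drawn up with results of these libraries known. Counts over the list therefore support nothing about it as a whole, and a p-value only sets a difference of a named gene against the spread between libraries. The 10 other human genes of the family, all that remained after this choice, are given beside the 9. They are therefore no unselected reference for them. RNA was sequenced in 24 libraries of 8 groups with 3 libraries each. MI-spheres are 3D cultures of MCF-10A, an immortalised normal-like mammary epithelial cell line, and MII-spheres are those of MCF-10AneoT, its derivative transformed with oncogenic HRAS, both grown in ultra-low attachment plates. Each was left without stimulation (MI Ctrl, MII Ctrl) or given 2.5 ng/ml TGFβ for 16 h (MI TGFβ, MII TGFβ). MDA-MB-231, a triple-negative breast carcinoma cell line of basal type, was grown in 2D and gave the other 4 groups. WT cells were compared with SLUG KO cells, which were made with a Cas9 ribonucleoprotein and a guide to the first coding part of SNAI2 and expanded from single cells. Csi cells, transfected with a scrambled siRNA, were compared with siSMAD2/3/4 cells, transfected with siRNAs against SMAD2, SMAD3 and SMAD4. Adjusted p below means the p of edgeR's quasi-likelihood F-test corrected for all tested genes by Benjamini and Hochberg. Log2 fold-changes carry an SE, taken as the absolute log2 fold-change over the square root of that test's F. The labels do not say whether libraries of a group came from separate cultures, so p-values cover only the spread between these libraries.

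Aldehyde dehydrogenases oxidise aldehydes to carboxylic acids with NAD+ or NADP+. The ALDH1A enzymes turn retinaldehyde into retinoic acid, the ligand of the RAR receptors, and their activity underlies the flow cytometry assay by which stem-like mammary cells are often sorted. ALDH2 is the mitochondrial enzyme that clears acetaldehyde after alcohol intake, and the ALDH3 enzymes act on medium- and long-chain or aromatic aldehydes, including products of lipid peroxidation. ALDH1L1 differs from the rest in that it oxidises 10-formyltetrahydrofolate in the cytosol.

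Between 14124688 and 38406952 fragments per library were counted on genes. Replicates of 7 groups had correlations across genes of 0.984 or more in log2 CPM, while WT replicate 2 stood apart (0.957 and 0.952 with the other WT libraries). Calls of the family genes in comparisons with WT are therefore given with and without it. Levels, shares and correlations over WT libraries include it. The targeted SMAD2 and SMAD4 fell in siSMAD2/3/4 cells by 1.92 and 1.72 on the log2 scale, and SMAD3 fell by 0.69. HRAS was higher in MII Ctrl than in MI Ctrl (log2 fold-change 2.45). SNAI2 mRNA was not lower in the libraries labelled SLUG KO but higher (log2 fold-change 1.10, adjusted p = 0.0399 in edgeR), while SOX4 fell by 5.96 on the log2 scale. A small deletion or insertion need not lower the mRNA, so these counts do not check the knockout. The study's methods state that knockout clones were checked by ddPCR and immunoblotting. The 12 epithelial markers summed to 3217 to 3289 CPM in MI Ctrl and to 2081 to 2121 CPM in MII Ctrl, against 219 to 675 CPM in WT. Of 8 markers of blood, endothelial and fat cells, PTPRC, CD3E and ADIPOQ had means under 1 CPM in every group. Others on the list differed among themselves. PECAM1 was higher in MII Ctrl (mean 104.6 CPM) than in MI Ctrl (9.79 CPM) and PLIN1 was higher too (11.2 against 3.03 CPM), while CDH5 (10.7 against 22.2 CPM) and VWF (0.185 against 1.33 CPM) were lower. CDH5 also fell with TGFβ in MI-spheres, by 3.42 on the log2 scale. The part of these genes in the results was not tested.

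ALDH1A3 held the largest share of the family's per-length sum in each sphere group (43.3% in MI Ctrl, 23.1% in MI TGFβ, 61.5% in MII Ctrl and 51.1% in MII TGFβ), next to 19.6% for ALDH18A1 in MI TGFβ. In MDA-MB-231 cells other genes were higher. On a per-length scale (CPM per kb of exon, mean ± SD of 3 libraries), all 19 family genes summed to 366 ± 2.25 in MI Ctrl and to 306 ± 1.49 in MII Ctrl. In WT cells the sum was 120 ± 11.6, and in Csi cells it was 160 ± 2.71. The 9 listed genes held 73.9% ± 0.0589 of the sum in MI Ctrl and 76.2% ± 0.785 in MII Ctrl, but 11.7% ± 0.312 in WT and 33.1% ± 0.355 in Csi. ALDH1A3 alone stood at a group mean of 158 CPM per kb in MI Ctrl and 188 CPM per kb in MII Ctrl. ALDH3A1, next among the 9 in MI Ctrl on this scale, stood at 67.5 CPM per kb. ALDH1A2, ALDH1L1 and ALDH2 each lay under 0.3 CPM per kb in the sphere groups. Lengths are those of all annotated exons joined, as in the count tables, and not those of the transcripts present, so ranks between genes depend on the annotation. ALDH3A2 has 15331 such bases and ALDH3A1 has 3878. In CPM without length, ALDH3A2 (324) stood above ALDH3A1 (262) in MI Ctrl. Of the ALDH1A3 bases, 33.3% are shared with other genes.

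Across groups the genes took different orders. ALDH1A3 ran from MII Ctrl (1003 ± 16.5 CPM, SD, n = 3) through MI Ctrl (844 ± 9.38 CPM), MII TGFβ (704 ± 3.17 CPM) and MI TGFβ (264 ± 27.3 CPM) down to 12 MDA-MB-231 libraries between 5.03 and 13.5 CPM, and none of the sphere groups overlapped with its neighbour in this order. ALDH3A2 showed a similar order with a smaller range, from 324 ± 8.17 CPM in MI Ctrl to 89.9 ± 19.3 CPM in WT. ALDH2 ran the opposite way, with at most 0.61 CPM in any sphere library and 20.9 to 65.6 CPM in MDA-MB-231 libraries. ALDH3B2 had 431 to 573 counts per MI Ctrl library and no count in any of the 12 MDA-MB-231 libraries. Its close relative ALDH3B1 had 433 to 2543 counts in the same libraries. ALDH3B1 was highest in MI Ctrl (104.2 ± 5.02 CPM) and MII Ctrl (98.7 ± 2.37 CPM), whose libraries overlapped. ALDH1A2 stayed at 2.45 CPM or less in every library.

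In MI-spheres TGFβ lowered ALDH3A1, ALDH3B1, ALDH1A3 and ALDH3A2 and raised the weakly expressed ALDH1A1 and ALDH1L1. Of the 8 listed genes tested, 2 were called higher and 4 lower (adjusted p under 0.05), where 28.7% of all 16863 genes were called higher and 27.4% lower. The median log2 fold-change was -0.47 over the 8 genes and -0.02 over all genes. ALDH2 had 1 to 11 counts per library here and did not pass the filter on low counts.

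ALDH1A3, a retinaldehyde dehydrogenase, stood at 854, 844 and 835 CPM in the MI Ctrl libraries and at 253, 244 and 295 CPM after TGFβ. The groups were far apart, with a log2 fold-change of -1.76 ± 0.06 (SE) and an adjusted p of 5.42e-16 in edgeR. Strand was ignored in counting and 32.1% of the exonic bases of ALDH1A3 also lie in its antisense RNA ALDH1A3-AS1, which fell from 27.8 ± 2.41 to 7.63 ± 0.766 CPM. Fragments on the shared bases were credited to neither gene. ALDH1A1, the retinaldehyde dehydrogenase best known from stem cell assays, read 2.58, 3.27 and 4.10 CPM without and 4.22, 4.12 and 6.55 CPM with TGFβ. All TGFβ libraries lay above all Ctrl libraries in TMM-scaled CPM, by as little as 0.02 CPM, but the groups overlapped by library totals alone. The change of 0.53 ± 0.20 on the log2 scale (adjusted p = 0.0298) lost its call with DESeq2 (adjusted p = 0.106). It was also lost without MI Ctrl replicate 1, MI Ctrl replicate 2 or MI TGFβ replicate 3 (0.0739 to 0.222). ALDH1A2, the retinaldehyde dehydrogenase of the early embryo, read 1.81, 2.45 and 1.45 CPM without and 1.87, 1.61 and 1.49 CPM with TGFβ, and the groups overlapped.

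ALDH3A1, an enzyme abundant in cornea that handles aromatic aldehydes and lipid peroxidation products, had the largest change of the 8 genes. It stood at 262, 257 and 267 CPM in MI Ctrl and at 39.2, 38.4 and 37.7 CPM in MI TGFβ. That is a 7.22-fold lower level, with a log2 fold-change of -2.85 ± 0.06 and an adjusted p of 1.27e-19. ALDH3B1, a membrane-associated enzyme that oxidises lipid-derived aldehydes, fell from 107.2, 98.4 and 106.9 CPM to 29.0, 30.4 and 29.3 CPM (log2 fold-change -1.90 ± 0.06, adjusted p = 4.53e-16). For ALDH3A2, the microsomal fatty aldehyde dehydrogenase whose loss causes Sjögren-Larsson syndrome, levels fell from 315, 331 and 326 CPM to 214, 200.5 and 245 CPM. Its change was smaller (log2 fold-change -0.64 ± 0.06, adjusted p = 6.85e-09), yet the groups did not overlap. ALDH3B2, a neighbour of ALDH3B1 on chromosome 11, read 22.1, 22.9 and 22.4 CPM without and 25.2, 24.8 and 23.8 CPM with TGFβ. Although these TMM-scaled values did not overlap, the fold-change in the 6-library fit was 0.05 ± 0.08 on the log2 scale (adjusted p = 0.605). By library totals alone the groups overlapped and the TGFβ mean lay below that of Ctrl. The direction of such a small difference therefore depends on the scaling.

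ALDH1L1 read 0.694, 0.241 and 0.727 CPM in MI Ctrl and 0.768, 1.83 and 0.979 CPM in MI TGFβ, from 5 to 41 counts per library. Its log2 fold-change of 1.03 ± 0.42 (adjusted p = 0.0442) rested on MI TGFβ replicate 2, without which it was 0.57 (adjusted p = 0.287). The call was also lost with DESeq2 (adjusted p = 0.143) and without any 1 of the MI Ctrl libraries (0.0573 to 0.208).

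Promoter windows from RefSeq (GRCh38.p14, 250 bases before to 50 bases after an annotated start) were on hand for 6 of the 9 genes, in 10 windows. ALDH2, ALDH3A1 and ALDH3B2 had no entry. The windows below are those of genes that fell together with TGFβ in MI-spheres and of ALDH1A1, which rose. Capitals mark letters found on either strand of the CAGA box CAGAC (the core bound by SMAD3 and SMAD4), the E-box CAGGTG (bound by SNAI and ZEB factors), the AP-1 site TGANTCA, the antioxidant response element core TGACNNNGC, the xenobiotic response element core GCGTG and the SOX site AACAAT. They lie at chr15:100879581-100879880 on the plus strand (ALDH1A3), chr11:68008297-68008596 on the plus strand (ALDH3B1), chr17:19648501-19648800 on the plus strand (ALDH3A2) and chr9:72953004-72953303 on the minus strand (ALDH1A1), each written 5′ to 3′ in the sense of the gene.
ALDH1A3: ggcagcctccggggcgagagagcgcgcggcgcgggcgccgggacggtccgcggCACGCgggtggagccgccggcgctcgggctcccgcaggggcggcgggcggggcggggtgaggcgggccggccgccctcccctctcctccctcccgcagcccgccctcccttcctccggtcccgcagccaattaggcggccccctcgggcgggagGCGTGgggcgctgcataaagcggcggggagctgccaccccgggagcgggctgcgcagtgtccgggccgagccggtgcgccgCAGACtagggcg
ALDH3B1: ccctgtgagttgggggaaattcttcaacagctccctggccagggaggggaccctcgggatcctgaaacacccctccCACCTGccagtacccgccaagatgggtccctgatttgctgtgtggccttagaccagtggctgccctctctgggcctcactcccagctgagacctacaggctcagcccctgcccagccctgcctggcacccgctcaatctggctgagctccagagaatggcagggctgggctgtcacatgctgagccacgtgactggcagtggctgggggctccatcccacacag
ALDH3A2: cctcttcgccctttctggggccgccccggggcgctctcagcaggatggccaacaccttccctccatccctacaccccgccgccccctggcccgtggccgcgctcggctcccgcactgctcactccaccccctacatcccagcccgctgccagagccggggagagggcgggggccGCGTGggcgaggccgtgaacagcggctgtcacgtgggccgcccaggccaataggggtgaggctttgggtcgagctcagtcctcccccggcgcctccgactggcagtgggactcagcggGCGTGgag
ALDH1A1: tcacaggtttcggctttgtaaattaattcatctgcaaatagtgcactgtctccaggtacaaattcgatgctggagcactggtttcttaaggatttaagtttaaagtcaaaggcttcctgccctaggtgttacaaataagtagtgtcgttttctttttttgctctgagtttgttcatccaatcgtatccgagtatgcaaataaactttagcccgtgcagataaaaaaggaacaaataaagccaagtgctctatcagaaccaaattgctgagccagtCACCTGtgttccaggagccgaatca

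The ALDH1A3 window, 81.7% G and C, holds 1 CAGAC at base 39 after the start and GCGTG in both orientations at bases -197 and -43. ALDH3B1 and ALDH1A1 hold 1 E-box each in these windows, at -174 and 26. A second ALDH3B1 window (chr11:68010077-68010376) holds the CAGA box as GTCTG at -149. ALDH3A2 holds GCGTG at -76 and 43, and its other window (chr17:19647886-19648185) holds none of the 6 motifs. Among 35116 RefSeq windows of the same length, CAGAC was found in 45.3%, CAGGTG in 20.6%, GCGTG in 36.5%, TGACNNNGC in 13.3%, AACAAT in 10.1% and TGANTCA in 7.71%. No motif was found in ALDH1A3, ALDH3B1 and ALDH3A2 alike, counting all their windows, and ALDH3A1, which also fell, was not searched. A match is a description of letters and not of binding, and a missing match covers only these windows.

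In MII-spheres ALDH3A1, ALDH3B1, ALDH1A3 and ALDH3A2 were again lower with TGFβ, by smaller amounts, ALDH1A1 and ALDH3B2 rose, and ALDH1L1 fell. Of 7 genes tested, 2 were called higher and 5 lower, against 29.9% higher and 27.6% lower of all 16396 genes. Their median log2 fold-change was -0.55, where that of all genes was -0.02. ALDH1A2 (1 to 6 counts per library) and ALDH2 (1 to 17 counts) were not tested. ALDH2 read 0.529, 0.568 and 0.610 CPM without and 0.203, 0.0666 and 0.272 CPM with TGFβ.

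ALDH1A3 stood at 1004, 986 and 1019 CPM in MII Ctrl and at 707, 704 and 701 CPM in MII TGFβ. The tight replicates made a 1.46-fold decrease clear (log2 fold-change -0.55 ± 0.03, adjusted p = 1.36e-20 in edgeR). ALDH1A1 moved from 0.265, 1.04 and 1.05 CPM to 2.43, 2.47 and 3.06 CPM, or from 4, 31 and 19 counts to 36, 37 and 45 counts. This rise of 1.62 ± 0.30 on the log2 scale (adjusted p = 1.09e-05) kept its call under each alternative setting that gave a value, with values of 1.31 to 1.90. MII TGFβ libraries overlapped with those of unstimulated MI-spheres.

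ALDH3A1 read 31.9, 32.5 and 31.1 CPM without and 15.6, 13.9 and 13.9 CPM with TGFβ (log2 fold-change -1.18 ± 0.08, adjusted p = 1.68e-18). ALDH3B1 went from 96.6, 101.3 and 98.3 CPM to 53.2, 53.0 and 58.6 CPM (log2 fold-change -0.88 ± 0.05). ALDH3A2 changed least of the genes called lower, from 294, 275 and 288 CPM to 248, 245 and 252 CPM (log2 fold-change -0.24 ± 0.04, adjusted p = 3.53e-07). None of these groups overlapped. ALDH3B2 rose from 8.66, 10.0 and 11.5 CPM to 15.5, 14.3 and 14.7 CPM (log2 fold-change 0.52 ± 0.11, adjusted p = 4.19e-05). ALDH1L1 fell from 0.926, 1.64 and 1.83 CPM to 0.406, 0.600 and 0.543 CPM, at 6 to 49 counts per library (log2 fold-change -1.56 ± 0.37, adjusted p = 3.71e-04).

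**Figure D1:**
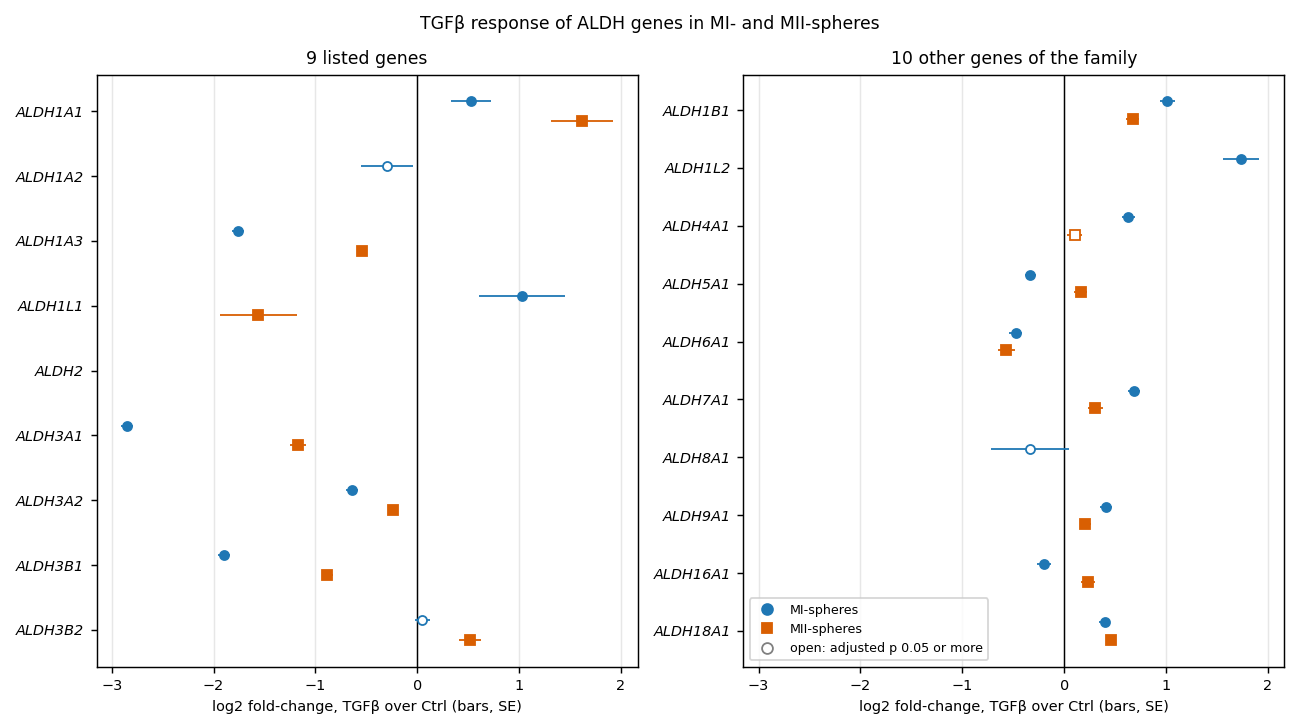
Log2 fold-change of TGFβ over Ctrl in MI-spheres (blue circles) and MII-spheres (orange squares) for the 9 listed genes (left) and the 10 other family genes (right), with SE bars. Filled symbols have an adjusted p under 0.05. ALDH3A1, ALDH3B1, ALDH1A3 and ALDH3A2 lie left of 0 in both lines and farther left in MI-spheres, while ALDH1L1 lies on opposite sides. Genes not tested in a line have no symbol.

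The TGFβ response differed between the lines for most of the 9 genes when all 12 sphere libraries were fitted together with an interaction term. The 6 genes called higher and the 1 called lower compare with 12.6% and 9.75% of all 18591 genes, and the MI and MII values enter this test rather than support it. The fall was larger in MI-spheres for ALDH3A1 (MII minus MI difference 1.69 ± 0.09 on the log2 scale, adjusted p = 9.73e-18), ALDH1A3 (1.22 ± 0.07, adjusted p = 1.46e-17), ALDH3B1 (1.03 ± 0.08, adjusted p = 1.00e-12) and ALDH3A2 (0.42 ± 0.07, adjusted p = 1.41e-05), all with edgeR. For ALDH3B2, which rose in MII-spheres and had no call in MI-spheres, the difference was 0.48 ± 0.13 (adjusted p = 0.00405). ALDH1L1 went up in MI- and down in MII-spheres, a difference of -2.57 ± 0.58 (adjusted p = 9.06e-04) that kept its call in all 16 alternatives. For ALDH1A1 the difference of 1.09 ± 0.38 (adjusted p = 0.0317) was lost with DESeq2 and without 7 of the 12 libraries taken 1 at a time, with adjusted p up to 0.12. ALDH1A2 and ALDH2 were tested here and had differences of 1.25 ± 0.70 and -1.23 ± 0.87, with adjusted p of 0.222 and 0.360.

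Among the other 10 genes of the family, TGFβ raised 6 of 10 in MI-spheres and 6 of 8 tested in MII-spheres, and lowered 3 and 1, with median log2 fold-changes of 0.40 and 0.22. Over all genes 28.7% were called higher and 27.4% lower in MI-spheres, and 29.9% and 27.6% in MII-spheres. ALDH1B1, a mitochondrial enzyme close to ALDH2 in sequence, rose from 22.8 ± 2.40 to 48.6 ± 1.98 CPM in MI-spheres and from 28.5 ± 2.84 to 46.8 ± 1.08 CPM in MII-spheres. ALDH18A1, which makes the proline precursor pyrroline carboxylate, rose by 0.40 ± 0.06 and 0.46 ± 0.05 on the log2 scale. ALDH7A1 and ALDH9A1 rose in both lines, by 0.69 and 0.41 in MI- and 0.30 and 0.21 in MII-spheres. ALDH1L2, the mitochondrial counterpart of ALDH1L1, rose from 1.83 ± 0.153 to 6.53 ± 0.851 CPM in MI-spheres and was too low to test in MII-spheres. ALDH6A1, an enzyme of valine breakdown, fell in both lines, by 0.48 and 0.57 on the log2 scale. ALDH5A1 and ALDH16A1 fell by 0.33 and 0.20 in MI-spheres and rose by 0.16 and 0.23 in MII-spheres, and ALDH4A1 rose by 0.63 in MI-spheres with a value of 0.10 ± 0.08 in MII-spheres that did not pass the test. With these changes the 9 listed genes held 40.6% ± 1.13 of the per-length sum in MI TGFβ and 64.0% ± 0.447 in MII TGFβ, below the shares in the unstimulated spheres.

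Genes that act with the aldehyde dehydrogenases were read from pathway lists, whose counts stand beside 28.7% of all genes called higher and 27.4% lower in MI-spheres and 29.9% and 27.6% in MII-spheres. Of 22 retinoid genes, 17 were tested in MI-spheres, with 4 called higher and 8 lower, and 16 in MII-spheres, with 4 higher and 6 lower. RDH10, which makes retinaldehyde from retinol, fell by 1.94 on the log2 scale in MI-spheres and rose in MII-spheres (log2 fold-change 0.52), a difference of 2.47 ± 0.07 (adjusted p = 1.24e-25). STRA6, the retinol uptake receptor, and the retinol dehydrogenase DHRS9 fell in both lines, by 1.73 and 1.45 in MI- and by 0.84 and 0.93 in MII-spheres. FABP5, a fatty acid binding protein that also carries retinoic acid, rose in MI-spheres (log2 fold-change 2.54) with a value of -0.05 ± 0.08 in MII-spheres that did not pass the test, and the lines differed by -2.58 ± 0.09. Of 12 one-carbon folate genes tested, 10 rose and 1 fell in MI-spheres and 7 rose and 3 fell in MII-spheres, with SHMT2 and SHMT1 among those higher in both (0.60 and 0.64, then 0.66 and 0.59). Among 12 genes of fatty aldehyde and sphingosine phosphate breakdown, 5 rose and 4 fell in MI-spheres and 5 rose and 2 fell in MII-spheres. The ceramidase gene ACER2 fell by 2.75 in MI- and by 1.14 in MII-spheres, with a difference of 1.62 ± 0.08. ADH5, the only one of 7 alcohol dehydrogenases that passed the filter in either line, rose by 0.51 and 0.50. Over the same libraries the 12 epithelial markers summed to 5610 to 5968 CPM in MI TGFβ and to 3691 to 3824 CPM in MII TGFβ. Both lay above the unstimulated spheres. Of the 12, 8 were called higher and 1 (GRHL2) lower in MI-spheres, and 9 higher and 0 lower in MII-spheres. The 8 mesenchymal markers summed to 62.1 to 68.7 CPM in MI Ctrl and 274.5 to 304 CPM in MI TGFβ, and to 150.5 to 157 CPM in MII Ctrl and 173 to 186.5 CPM in MII TGFβ. Of the 8 mesenchymal markers, 7 were tested in each line. In MI-spheres 4 were called higher and 0 lower, and in MII-spheres 3 higher and 1 (TWIST1) lower. The part of these shifts in the results was not tested.

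Unstimulated MII-spheres had less ALDH3A1, ALDH1A1, ALDH1A2 and ALDH3B2 than MI-spheres. ALDH3A1 was 8.14-fold lower (31.9, 32.5 and 31.1 CPM against 262, 257 and 267 CPM), with a log2 fold-change of -3.03 ± 0.04 and an adjusted p of 1.49e-49 in edgeR. Of the 9 genes, all tested, 2 were called higher and 5 lower, where 31.7% of 17862 genes were higher and 32.5% lower. The median of the 9 was -0.17 and that of all genes 0.02.

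ALDH1A3 was 1.20-fold higher in MII Ctrl (log2 fold-change 0.26 ± 0.03, adjusted p = 9.89e-10), while the other retinaldehyde dehydrogenases were lower. ALDH1A1 fell from 67 to 79 counts per library in MI Ctrl to 4 to 31 counts in MII Ctrl (log2 fold-change -1.94 ± 0.28, adjusted p = 1.95e-08), and ALDH1A2 from 28 to 51 counts to 1 to 6 counts (-3.37 ± 0.44, adjusted p = 2.33e-09). ALDH3B2 was 2.20-fold lower (log2 fold-change -1.14 ± 0.09) and ALDH3A2 1.13-fold lower (-0.17 ± 0.04, adjusted p = 4.18e-05). ALDH3B1 did not differ beyond the spread (-0.06 ± 0.04, adjusted p = 0.200). ALDH1L1 was higher (1.43 ± 0.36, adjusted p = 4.70e-04) at 5 to 49 counts per library. ALDH2 read 0.424, 0.144 and 0.363 CPM in MI Ctrl and 0.529, 0.568 and 0.610 CPM in MII Ctrl, without overlap but also without a call (0.85 ± 0.46, adjusted p = 0.0998). Of the 10 other family genes 1 was higher (ALDH1B1, 0.35 ± 0.07) and 8 were lower, with the ALDH8A1 call lost in 5 of 11 alternatives. ALDH5A1, ALDH7A1 and ALDH6A1 were lower by 1.15, 1.09 and 0.95 on the log2 scale. Among retinoid genes 7 of 17 tested were higher and 6 lower, with DHRS9 and STRA6 higher (1.83 and 1.17) and CRABP2 and RDH10 lower (-1.40 and -1.15).

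WT MDA-MB-231 cells in 2D and MI Ctrl spheres differed in all 9 genes, the line, the culture format and the medium changing together. In WT cells 2 genes were called higher and 7 lower, beside 28.1% and 25.9% of 18732 genes. The median log2 fold-change was -2.18, also with ALDH3B2 at its bound, and that of all genes was 0.06. ALDH2 was 90.1-fold higher in WT (31.0, 20.9 and 35.2 CPM, log2 fold-change 6.49 ± 0.41) and ALDH1L1 4.32-fold higher (2.11 ± 0.40). ALDH3A1 was 223-fold lower at 26 to 34 counts per WT library (log2 fold-change -7.80 ± 0.21), and ALDH1A3 was 138-fold lower at 139 to 170 counts (-7.11 ± 0.21). ALDH3B2, with 0 counts in WT and 1480 over the 3 MI Ctrl libraries, was at least 567-fold lower, taking 3 counts over the WT group (0.0396 CPM) as the floor. ALDH1A1 had 1 count over the WT group against 214 in MI Ctrl, a ratio of 246 with an exact counting interval of 43.6 to 9740 that covers counting error only. ALDH3B1 and ALDH3A2 were 4.55-fold and 3.62-fold lower (adjusted p = 6.57e-04 and 2.56e-04 in edgeR), and ALDH1A2 was 2.35-fold lower (adjusted p = 0.0192). The ALDH1A2 call was lost without MI Ctrl replicate 1, MI Ctrl replicate 2 or WT replicate 1 (adjusted p 0.0537 to 0.0803), and all 9 calls held without WT replicate 2. Of the 10 other family genes, all tested, 2 were higher (ALDH1B1 and ALDH7A1) and 4 lower (ALDH4A1, ALDH5A1, ALDH6A1 and ALDH8A1). ALDH5A1 was 8.19-fold lower and ALDH1B1 2.89-fold higher. The ALDH7A1 call was lost in 7 of 12 alternatives, that of ALDH6A1 in 3 of 12, ALDH4A1 in 2 of 12 and ALDH8A1 in 1 of 11. Without WT replicate 2 these calls held, and ALDH9A1 was called higher and ALDH16A1 lower (adjusted p = 1.64e-06 and 1.74e-06 in edgeR). Of the 12 epithelial markers 11 were also called lower in WT, and of the 17 retinoid genes tested 11 were lower and 1 higher, with STRA6 and DHRS9 at -8.95 and -10.28. One-carbon folate genes had 5 of 12 higher and 2 lower, with TYMS higher by 4.24.

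Among MDA-MB-231 libraries, those labelled SLUG KO had more ALDH1L1 than WT. It read 10.5, 9.77 and 8.33 CPM against 2.48, 2.48 and 2.33 CPM, a 3.84-fold difference (log2 fold-change 1.94 ± 0.21, adjusted p = 0.00479 in edgeR) that kept its call in every alternative run. It was the 1 gene called higher of 7 tested and none was called lower, beside 1.45% higher and 1.89% lower of 17428 genes. At an unadjusted p under 0.05, 5 of the 7 passed, and DESeq2 called 3. The median was 0.77 over the 7 genes and -0.05 over all genes. SLUG KO cells were expanded from single cells and WT cells are the parental line, so knockout and cloning cannot be told apart.

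The fits with and without WT replicate 2 differed in their calls. ALDH3B1 read 16.2, 33.6 and 19.1 CPM in WT, the high value being replicate 2, and 51.8, 42.5 and 44.8 CPM in SLUG KO. Its log2 fold-change of 0.98 ± 0.29 (adjusted p = 0.136) became 1.38 ± 0.11 (adjusted p = 1.99e-07) without that library. ALDH1A3 read 5.78, 5.75 and 6.84 CPM in WT and 11.2, 10.4 and 13.5 CPM in SLUG KO, with 0.91 ± 0.20 (adjusted p = 0.0572) in all libraries and 0.88 ± 0.15 (adjusted p = 3.60e-04) without WT replicate 2. ALDH3A1 was low in both, at 1.28, 1.08 and 1.17 CPM in WT and 0.516, 0.411 and 0.634 CPM in SLUG KO, with -1.19 ± 0.31 (adjusted p = 0.101) and -1.24 ± 0.39 (adjusted p = 0.0238). ALDH2 went from 31.0, 20.9 and 35.2 CPM to 40.6, 42.7 and 38.9 CPM, with 0.47 ± 0.22 (adjusted p = 0.307) and 0.29 ± 0.10 (adjusted p = 0.0351). Without WT replicate 2, 4 listed genes were called higher and 1 lower, but so were 16.8% and 14.4% of 17909 genes. ALDH3A2 and ALDH1A2 had no call in either fit, and ALDH1A1 (0 to 3 counts) and ALDH3B2 (0 counts) were not tested. Of the 9 other family genes tested, none was called by edgeR or DESeq2 with all libraries and 1 had an unadjusted p under 0.05. Without WT replicate 2 edgeR called ALDH1B1 and ALDH4A1 higher (0.47 ± 0.10, adjusted p = 0.00144, and 0.40 ± 0.11, adjusted p = 0.0120). ALDH16A1 and ALDH9A1 show the same library, with 73.7 CPM in WT replicate 2 against 22.0 and 31.8 CPM, and 48.8 CPM against 94.1 and 117 CPM. No call was made by edgeR among 13 retinoid, 13 one-carbon folate and 2 alcohol dehydrogenase genes, where 2, 3 and 0 had an unadjusted p under 0.05 and DESeq2 called 1, 0 and 0. The sphingosine kinase gene SPHK1 was the 1 call among 12 genes of fatty aldehyde and sphingosine phosphate breakdown (-1.69 ± 0.32, adjusted p = 0.0358).

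Depletion of SMAD2, SMAD3 and SMAD4 raised ALDH1A3 and ALDH3B1, both by less than 2-fold. ALDH2 was called lower by a smaller amount, a call lost in 3 of 12 alternatives. Of 8 genes tested 2 were called higher and 1 lower, beside 16.3% and 19.7% of 17696 genes, with medians of 0.09 over the 8 and 0.00 over all genes. ALDH1A3 went from 5.03, 6.24 and 6.64 CPM in Csi to 9.64, 10.4 and 9.84 CPM in siSMAD2/3/4, without overlap (log2 fold-change 0.73 ± 0.11, adjusted p = 2.40e-06 in edgeR). ALDH3B1 rose from 56.7, 55.2 and 57.4 CPM to 70.2, 70.2 and 63.8 CPM (0.27 ± 0.05, adjusted p = 6.94e-05). The file names place replicates 1 and 2 of siSMAD2/3/4 on another flow cell than replicate 3 and the Csi libraries. With flow cell as a term, the contrast rests on siSMAD2/3/4 replicate 3 against the Csi libraries and cannot stand for the group. Its values were 0.72 for ALDH1A3 and 0.19 for ALDH3B1. ALDH2 fell from 60.1, 63.8 and 65.6 CPM to 56.8, 55.1 and 57.7 CPM (-0.17 ± 0.05, adjusted p = 0.00826). This call was lost without Csi replicate 3 (adjusted p = 0.0650) or siSMAD2/3/4 replicate 2 (adjusted p = 0.0590). It was also lost with the flow cell term, at -0.12 from replicate 3 alone. ALDH1A1 read 62.4, 64.4 and 62.6 CPM in Csi and 70.0, 66.0 and 66.8 CPM in siSMAD2/3/4, with no call (0.09 ± 0.05, adjusted p = 0.130). ALDH3A1, ALDH3A2, ALDH1A2 and ALDH1L1 had values of -0.12, 0.09, 0.48 and -0.42, none called in the main fit. ALDH3A2 gained a call with DESeq2 (adjusted p = 0.0497) and in edgeR with at least 10 counts in every library (adjusted p = 0.0348). Of the 10 other genes 2 were higher and 3 lower. The calls of ALDH1B1, ALDH4A1, ALDH6A1 and ALDH9A1 were lost in 3, 6, 6 and 5 of 12 alternatives, each time with the flow cell term among them. ALDH16A1 stood at -0.27 ± 0.06, and at -0.41 with that term, from replicate 3 alone. Among 13 one-carbon folate genes 2 were higher and 8 lower, with TYMS at -1.12, and among 16 retinoid genes tested 4 were higher and 3 lower, with RARG and STRA6 higher (0.73 and 0.93).

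**Figure D2:**
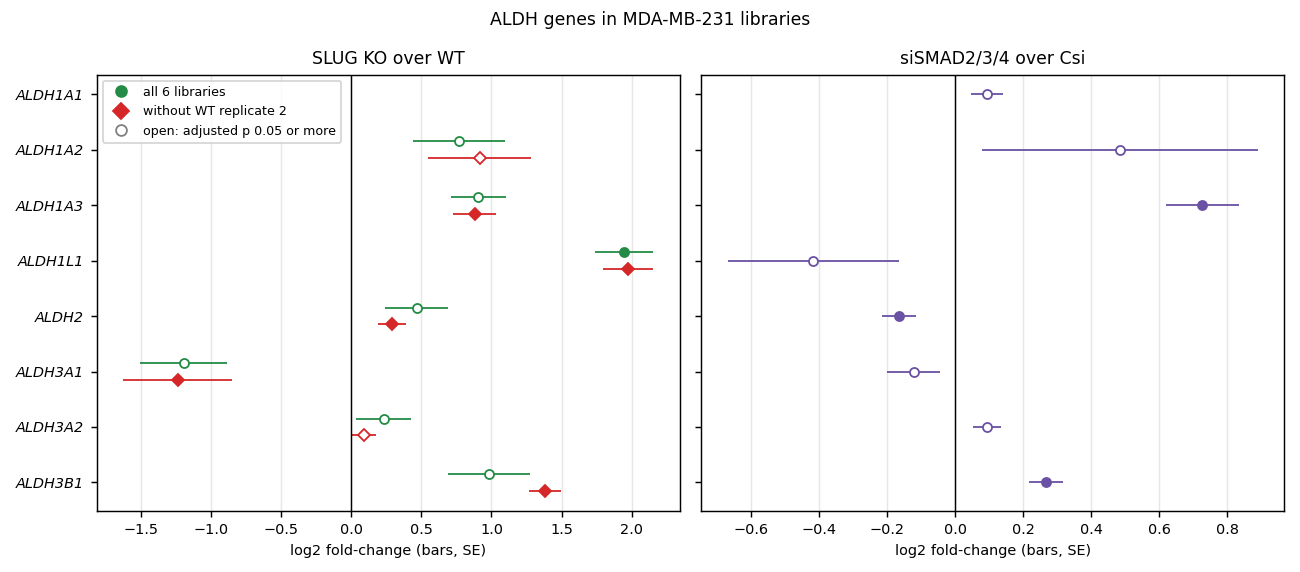
Log2 fold-change with SE of the listed genes in MDA-MB-231 libraries, for SLUG KO over WT with all 6 libraries (green circles) and without WT replicate 2 (red diamonds) on the left, and for siSMAD2/3/4 over Csi on the right. Filled symbols have an adjusted p under 0.05. ALDH1L1 is called in both SLUG KO fits, and ALDH1A3 lies between 0.73 and 0.91 in all fits. ALDH3B2 has no counts here and is left out, and ALDH1A1 was not tested in SLUG KO over WT. The 2 panels have different x axes.

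WT and Csi cells are both MDA-MB-231 controls but were sequenced in different batches, and sequencing batch, transfection and culture cannot be told apart, so no test was made between them. ALDH1A1 had 62.4 to 64.4 CPM in Csi and 0 or 1 count per library in WT. ALDH3A1 stood at 21.5 to 24.96 CPM in Csi and at 1.08 to 1.28 CPM in WT, and ALDH2 at 60.1 to 65.6 against 20.9 to 35.2 CPM. ALDH1A3, with 5.03 to 6.64 CPM and 5.75 to 6.84 CPM, overlapped. Other genes also stood apart between these groups, with mean CDH1 at 17.8 CPM in Csi and 1.23 CPM in WT and mean FN1 at 2420 against 773 CPM.

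Across the 24 libraries the 9 genes followed different partners. Pearson's r of log2 CPM describes here mainly the gap between the sphere libraries and the MDA-MB-231 libraries, which differ in line and culture and in part in sequencing batch. ALDH1A3 ran with ALDH3B2 (r = 0.966) and ALDH3A2 (0.947) and against ALDH2 (-0.953). ALDH1A1 had its highest value within the list with ALDH3A1 (0.608). Among all protein-coding genes the 3 most like ALDH1A3 were TRIM31, PSCA and PATJ (0.994, 0.994 and 0.993), those most like ALDH3B2 were GGT6, HS6ST2 and TMPRSS13 (0.998 each), and those most like ALDH2 were GALM, PHYHD1 and SSTR2 (0.988 each). ALDH3A2 was closest to ANKRA2, SAT1 and PDE4D (0.986 to 0.982), ALDH3A1 to FRAT1, AHCYL2 and SP110 (0.948 each) and ALDH3B1 to VSIR, ANXA11 and MRNIP (0.952 to 0.909). ALDH1A1 was closest to PITPNA, GTF3C2 and TMEM254 (0.955 to 0.942), ALDH1L1 to GPR143, IER5 and ARMC9 (0.940 to 0.873) and ALDH1A2 to KAT14, GRK3 and MEAK7 (0.905 to 0.891).

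By the annotation (GENCODE on GRCh38), the genes lie on 6 chromosomes. ALDH1A2 (chr15:57953424-58497866) and ALDH1A3 (chr15:100877714-100916626) share chromosome 15. ALDH3A1 (chr17:19737984-19748943) and ALDH3A2 (chr17:19648136-19685760) are neighbours on opposite strands of chromosome 17, and ALDH3B1 (chr11:68008578-68029282) and ALDH3B2 (chr11:67662160-67681224) on opposite strands of chromosome 11. Between neighbours the TGFβ values above went the same way for the chromosome 17 pair and opposite ways for the chromosome 11 pair in MII-spheres. ALDH1A1 (chr9:72900671-73080442), ALDH1L1 (chr3:126103562-126197994) and ALDH2 (chr12:111766887-111817532) have no other listed gene on their chromosome. Of their exonic bases, 6.99% of ALDH2, 6.93% of ALDH1A2, 3.53% of ALDH1L1 and 2.53% of ALDH3A1 are shared with other annotated genes, and those of ALDH1A1, ALDH3A2, ALDH3B1 and ALDH3B2 with none. In the count tables the genes carry the Ensembl identifiers ENSG00000165092.13 (ALDH1A1), ENSG00000128918.15 (ALDH1A2), ENSG00000184254.17 (ALDH1A3), ENSG00000144908.14 (ALDH1L1), ENSG00000111275.13 (ALDH2), ENSG00000108602.18 (ALDH3A1), ENSG00000072210.19 (ALDH3A2), ENSG00000006534.16 (ALDH3B1) and ENSG00000132746.15 (ALDH3B2).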

How the data were processed

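Per the file headers and the study's methods, the counts deposited by the authors came from reads cleaned with Trimmomatic and aligned by STAR to GRCh38. Their featureCounts 2.0.0 run assigned fragments to the exons of GENCODE 38 genes at a minimum mapping quality of 30. Strand was ignored, and fragments with several alignments or several genes were left out. Each library has its own table of raw counts, and the 16 ATAC-seq samples (of 40) were not analysed here. Symbols came from GENCODE 44 and matched 99.6% of gene IDs.

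edgeR 4.0.16 (R 4.3.3) was run separately for the 6 libraries of a comparison, or the 12 sphere libraries for the interaction, with filterByExpr, TMM scaling and its quasi-likelihood test. Adjustment was by Benjamini-Hochberg over all genes tested, and an adjusted p under 0.05 was a call. The code was tested on simulated counts. CPM used TMM over 24 libraries, and log2 CPM for correlations a prior count of 2. Alternatives were DESeq2 1.42.0, its size factors in edgeR, no filter, at least 10 counts in every library, a replicate block, wider fits, a flow cell term and leaving out each library. The listed genes, pathway and marker lists were chosen with earlier results of these data known. Named were the 19 family genes, at most 4 called genes per pathway list and comparison, the targeted genes and the 3 genes most like each listed gene. Values outside that rule (single markers, ALDH1A3-AS1, and FABP5 in MII-spheres) were chosen after they were seen.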

Additional observations from a re-analysis of the deposited data

Results flagged for a closer look

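For 13 of the 19 family genes, all of them tested, the response to TGFβ differed between MI- and MII-spheres (adjusted p under 0.05). The test was the interaction term of edgeR's quasi-likelihood fit, which called 12.6% of all 18591 genes higher and 9.75% lower. The difference, MII minus MI on the log2 scale, was positive for ALDH1A1 (1.09), ALDH1A3 (1.22), ALDH3A1 (1.69), ALDH3A2 (0.42), ALDH3B1 (1.03), ALDH3B2 (0.48), ALDH5A1 (0.50) and ALDH16A1 (0.45). It was negative for ALDH1L1 (-2.57), ALDH1B1 (-0.33), ALDH1L2 (-1.90), ALDH4A1 (-0.52) and ALDH7A1 (-0.37). ALDH1L1, ALDH5A1 and ALDH16A1 moved in opposite directions in the 2 lines, and each of these changes passed the test within its line, although the MI calls of ALDH1L1 and ALDH16A1 and the MII call of ALDH5A1 were lost in some alternatives. The ALDH1A1 difference lost its call in 8 of 16 alternatives and the ALDH1B1 difference in 3 of 17.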

How the results depend on the processing

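Of 711 values of the 9 genes under an alternative, 676 kept their call or its absence, 23 lost a call, 12 gained one and none reversed a called direction. The count of the 9 genes called moved by more than 1.5 times in these cases. For SLUG KO over WT it was 1 and became 3 with DESeq2, 2 without a filter on low counts, 4 with MI Ctrl in the same fit and 1 to 5 without 1 library at a time, with 5 reached without WT replicate 2, where calls over all genes rose from 581 to 5592. Without another library those calls were 133 to 378, and they were 1204 with DESeq2, 973 without a filter, 260 with at least 10 counts in every library, 255 with a replicate block and 1496 with MI Ctrl in the fit. With at least 10 counts in every library, MII Ctrl over MI Ctrl gave 4 instead of 7 and WT over MI Ctrl 5 instead of 9, because only 5 genes were then tested in each, and calls over all genes for WT over MI Ctrl went from 10107 to 6527. Leaving out 1 library gave 4 to 6 genes for TGFβ in MI-spheres, 7 for TGFβ in MII-spheres and for MII over MI, 2 to 3 for siSMAD2/3/4, 8 to 9 for WT over MI Ctrl and 6 to 7 for the interaction. Same-numbered libraries were not treated as paired in the main fits. The correlations of their deviations from group means were -0.185 to 0.0655, which does not tell how the cultures were set up. A replicate block gave 6, 7, 7, 1, 3, 9 and 7 genes in the order of the comparisons (MI TGFβ, MII TGFβ, MII over MI, SLUG KO, siSMAD2/3/4, WT over MI Ctrl, interaction), the counts found without it. With DESeq2's size factors the share of higher calls moved most for the interaction, from 56.4% to 54.0%. Library totals without TMM moved 18 of 72 group means by more than 1 SD, at ratios of 0.852 to 1.09. ALDH2, not tested for TGFβ in MII-spheres, had log2 fold-changes of -1.63 without the filter (adjusted p = 0.0437), -1.64 with all sphere libraries in 1 fit (0.0278) and -1.66 with DESeq2 (0.113). Few counts limit ALDH1A1, ALDH1A2, ALDH1L1 and ALDH2 in spheres.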
